A study of Gasterosteus aculeatus with 62 samples.

Results

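This comparison set the diencephalon of 8 tradeoff males of the threespined stickleback (Gasterosteus aculeatus) against that of 8 courtship males. Its 16 libraries were chosen by the region and treatment codes in the sample titles, out of 62 libraries of the series. Tradeoff males faced a live gravid female in a cage together with a model trout. Courtship males faced a live gravid female in a cage and no trout. All of these males had built a nest in their own tank before the trial, and both groups met a female, so the groups differ by the trout and whatever came with it. Odour cues are named in the labels for the predator treatment alone, and whether tradeoff males smelled a predator too is not stated. RNA was taken 1 hour after the trial from the dissected region of 1 male per library. The spread within a group thus holds differences between animals together with those of dissection, library preparation and counting. In such bulk tissue, fewer cells of a type and less RNA per cell cannot be told apart. The diencephalon libraries of 8 predator males (model trout with odour cues, no female) and 7 control males (empty cages) entered the same fit and are used below to set values beside this comparison.

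In fishes the diencephalon holds the hypothalamus, which drives the pituitary. Through it the brain controls reproduction by gonadotropin-releasing hormone and the stress response by corticotropin-releasing hormone, and so it takes part both in courtship and in the response to a predator. A stickleback male courts with a zigzag dance in front of his nest and cares for the eggs alone, and the conspicuous display can draw the attention of predatory fish.

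The files give gene models by identifier and pair none with a name. Of 22295 identifiers, 0 were found in the table of gene names at hand, so hormone genes, receptors, early response genes and cell type markers could not be picked out, and no gene is given a role. Without markers the tissue itself could not be checked, and the libraries were only set against others with the same region label. For this a regional index was formed from genes chosen in control and predator males: the mean log2 level of 500 that were higher in telencephalon, less the mean of 500 that were higher in diencephalon. It ran from -1.16 to -0.90 in the 16 diencephalon libraries and 1.40 to 2.50 in the telencephalon libraries of the same males. The diencephalon index averaged -1.04 ± 0.0879 in tradeoff males and -1.08 ± 0.0525 in courtship males (SD, n = 8 each), a difference of 0.0349 (two-sided exact permutation p = 0.351).

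The libraries of the groups were alike in depth. Counts in gene models averaged 34.9 M in tradeoff libraries (SD 5.40, n = 8, range 26.6 to 44.2 M) and 33.9 M in courtship libraries (SD 3.52, n = 8, range 29.0 to 38.1 M). Among 13 measures of the libraries, none had an unadjusted exact permutation p under 0.05. The smallest was 0.0793 (0.884 after Benjamini-Hochberg adjustment over the 13), for the share of counts in the 50 most abundant genes, which was 15.9% in tradeoff libraries (SD 0.818, n = 8) and 15.2% in courtship libraries (SD 0.673, n = 8). The first principal component held 13.1% of the variance of the 16 libraries. Tradeoff libraries ran from -23.7 to 30.9 on it and courtship libraries from -19.0 to 40.3, so the groups overlapped almost entirely.

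No gene was called between tradeoff and courtship males in the diencephalon. The contrast was tested by edgeR's quasi-likelihood method within a fit of all 31 diencephalon libraries. With Benjamini-Hochberg adjustment over the 18942 genes tested, 0 (0.0%) had an adjusted p under 0.05, and the smallest adjusted p was 1.0. At an unadjusted p under 0.05 there were 634 genes, 3.35% of those tested. Of these, 383 had a higher estimate in tradeoff males (2.02% of all tested) and 251 a lower one (1.33%). Of the 18942, 107 reached an unadjusted p under 0.01 and 12 one under 0.001. Evenly spread p values would put shares of 0.05, 0.01 and 0.001 of all genes under these levels, and each count was below that. DESeq2 and voom with sample quality weights, on the same 31 libraries, also called 0 genes, with 674 and 773 at an unadjusted p under 0.05.

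The estimates were small and, for most genes, tightly bounded. The median absolute log2 fold change was 0.0583 over all tested genes, and the median standard error was 0.0928. For 89.4% of genes the whole 95% interval was narrower than a 2-fold change each way, and for 77.9% it was narrower than a 1.5-fold change. The bound depended on the level. Levels are given in CPM, the counts of a gene divided by the library's scaled depth in M. Of 9612 genes at a mean of 10 to 100 CPM, 99.0% had an interval within 2-fold, and of 1959 genes under 1 CPM 33.7% did. The median standard error was 0.427 for the genes under 1 CPM and 0.0712 for those at 10 to 100 CPM.

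**Figure D1:**
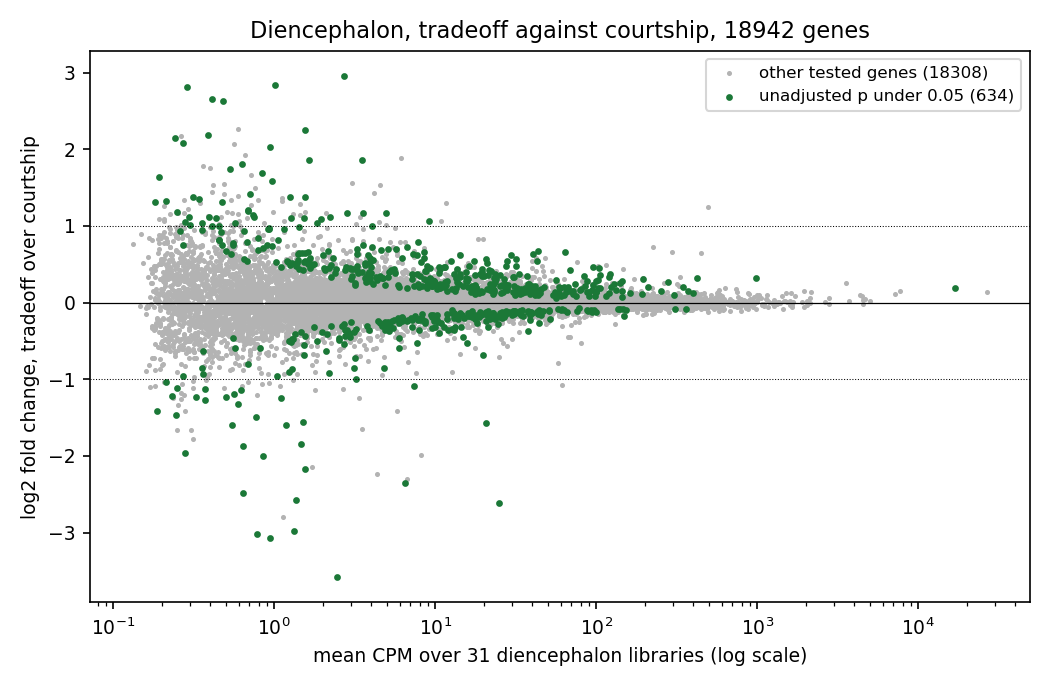
Log2 fold change of tradeoff over courtship (vertical) against the mean level in CPM over the 31 diencephalon libraries (horizontal, log scale). Each point is 1 of 18942 genes. The 634 genes at an unadjusted p under 0.05 are green, dotted lines mark 2-fold, and the large estimates lie almost entirely among genes under 10 CPM.

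Large estimates were concentrated at low levels. An estimate over 2-fold was found for 108 genes higher in tradeoff males (0.57% of those tested) and 67 lower (0.354%). Of the 108, 72 had a mean under 1 CPM, and of the 67, 42 did. At 10 to 100 CPM there were 2 higher and 3 lower, and above 100 CPM 1 higher and 0 lower. Among the 634 genes, 23 had a highest library at least 2-fold above the next of the 16, so that a single male weighed heavily in the estimate. Of the 80 genes of the 634 with an estimate over 2-fold, 19 were of this kind. The share of such genes over all tested genes is not given here, so these counts cannot be read as particular to the 634.

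Gene models of each annotation source showed similar shares. Of 472 tested models named for the Y chromosome, 17 had an unadjusted p under 0.05 (3.60%), 11 higher and 6 lower in tradeoff males. Of 312 other models from the MAKER annotation pipeline, 11 did (3.53%), and of 18158 models with Ensembl identifiers, 606 did (3.34%). Y models can share reads with a close X copy, and reads that aligned to several places are in no count, so their values are uncertain.

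The genes named next had the smallest p in each direction and are given as values, since none passed the threshold. ENSGACG00000004638 had the smallest p of all. Its level in tradeoff males was 1.14 CPM at the lowest, 1.89 at the median and 3.55 at the highest, against 0.585, 1.04 and 1.26 CPM in courtship males. Tradeoff males were higher, and 7 of the 8 lay above the highest courtship male. Predator males ran from 0.823 to 2.37 CPM in the diencephalon (median 1.40) and control males from 0.768 to 2.35 CPM (median 1.75). The courtship median was thus the lowest of the treatments. The log2 fold change was 1.098 (SE 0.245, unadjusted p = 9.06e-05, edgeR adjusted p = 1.0). The gene is of low level, with 39 to 145 counts per tradeoff library and 23 to 46 per courtship library.

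ENSGACG00000009318 came second among genes with a higher estimate. It was measured at 4.66 CPM (lowest), 5.98 (median) and 7.14 CPM (highest) in tradeoff males, against 2.31, 3.54 and 5.25 CPM in courtship males. All 8 tradeoff males lay above the courtship median and 5 above the highest courtship male. Predator males had a diencephalon median of 4.67 CPM and control males one of 4.29 CPM. The log2 fold change was 0.69 (SE 0.174, unadjusted p = 0.000390, edgeR adjusted p = 1.0).

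ENSGACG00000017975 had the smallest p among genes with a lower estimate, with a small difference and a narrow spread. Its level was 31.1 CPM (lowest), 33.4 (median) and 38.2 CPM (highest) in tradeoff males, against 36.1, 38.0 and 38.9 CPM in courtship males. Of the 8 tradeoff males, 7 lay below the lowest courtship male, and male 13, at 38.2 CPM, lay within the courtship range. The log2 fold change was -0.17 (SE 0.0387, unadjusted p = 0.000121, edgeR adjusted p = 1.0). Without male 13 it was -0.20 (SE 0.0363, edgeR adjusted p = 0.121). With each of the 16 libraries left out in turn it ran from -0.20 to -0.15, and 0.121 was the smallest adjusted p. Courtship males varied little (SD 0.858 CPM, n = 8) beside tradeoff males (SD 2.24 CPM, n = 8).

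ENSGACG00000013078 was measured at 0.0926 CPM (lowest), 0.271 (median) and 0.642 CPM (highest) in tradeoff males, against 0.312, 0.7 and 4.91 CPM in courtship males. The highest value was that of courtship male 21, whose library held 193 counts of this gene where the other courtship libraries held 10 to 36. The log2 fold change was -1.87 (SE 0.465, unadjusted p = 0.000327, edgeR adjusted p = 1.0), and without male 21 it was -1.02 (SE 0.354, unadjusted p = 0.00739, adjusted p = 1.0). The telencephalon library of the same male was also the highest of its group, at 2.35 CPM. The diencephalon median of this gene was 0.715 CPM in predator males and 0.356 CPM in control males.

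**Figure D2:**
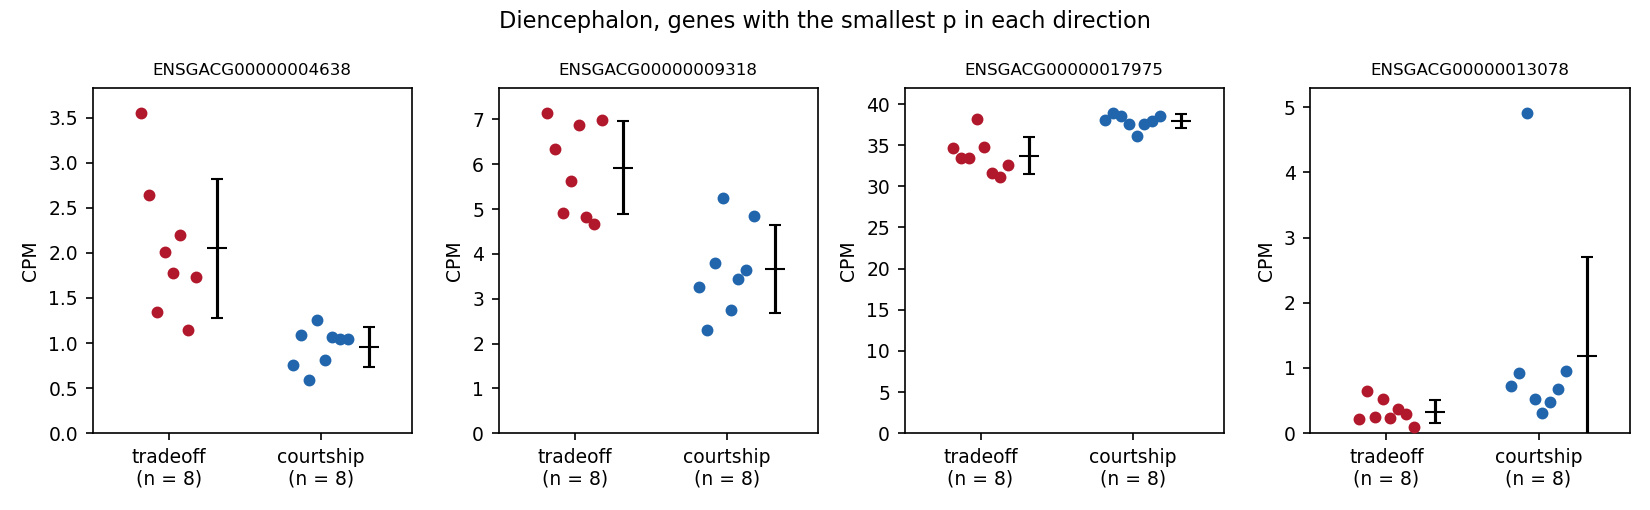
Level in CPM (vertical, from 0) of 4 genes, the 2 higher and the 2 lower with the smallest p, in the diencephalon of tradeoff males (red, left) and courtship males (blue, right). Points are males, and black marks are the mean and SD (n = 8), with the SD bar cut at 0. Tradeoff males overlap courtship males in all 4 genes.

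Groups that did not overlap were rarer still. In 1 gene the lowest tradeoff male lay above the highest courtship male (0.00528% of those tested), and in 0 genes the highest tradeoff male lay below the lowest courtship male (0.0%). The gene, ENSGACG00000010689, was named after its values were seen. It had 6.90 CPM (lowest), 7.68 (median) and 14.9 CPM (highest) in tradeoff males, against 3.05, 5.28 and 6.41 CPM in courtship males, a log2 fold change of 0.72 (SE 0.218, unadjusted p = 0.00236, edgeR adjusted p = 1.0). In the diencephalon of predator males it ran from 2.69 to 10.8 CPM and in control males from 4.01 to 8.53 CPM, so both of those groups overlapped with both others.

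One setting of this comparison gave calls. DESeq2 on only the 16 libraries, added once the results were known, called 4 genes, while edgeR on the same 16 called 0. The genes were ENSGACG00000013884, ENSGACG00000009724, ENSGACG00000004638 and ENSGACG00000000094. ENSGACG00000013884 had a mean of 2.66 ± 0.533 CPM in tradeoff males and 1.29 ± 0.432 CPM in courtship males (SD, n = 8 each), and its log2 fold change was 1.04 (SE 0.214, DESeq2 adjusted p = 0.0206). ENSGACG00000000094 had 15.8 ± 3.35 CPM in tradeoff males and 25.3 ± 6.23 CPM in courtship males (SD, n = 8 each), and its log2 fold change was -0.69 (SE 0.145, DESeq2 adjusted p = 0.0206). ENSGACG00000009724 had 9.02 ± 2.38 CPM in tradeoff males and 5.21 ± 1.39 CPM in courtship males (SD, n = 8 each), with a log2 fold change of 0.79 (SE 0.174, DESeq2 adjusted p = 0.0318). With all 31 libraries edgeR gave an unadjusted p of 0.000873 for ENSGACG00000013884, 0.00131 for ENSGACG00000000094 and 0.000585 for ENSGACG00000009724, each with an adjusted p of 1.0. In the diencephalon of predator and control males, ENSGACG00000013884 averaged 1.76 and 1.66 CPM. ENSGACG00000000094 averaged 19.1 and 18.8 CPM there, and ENSGACG00000009724 averaged 8.25 and 8.79 CPM. For ENSGACG00000009724 the courtship mean stood below those of the other groups, which lay close together.

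The spread between males was wider than the difference between the groups for a typical gene. These are unlike measures, since means of 8 males vary less than single males, so this does not show whether the groups differ. The median over genes of the SD between males, on the log2(CPM + 0.5) scale, was 0.168 in tradeoff males and 0.162 in courtship males, and the median absolute difference of the group means was 0.0540. The SD was the larger one in tradeoff males for 55.1% of genes. Single males departed from the rest in limited sets of genes. Of 10959 genes that averaged 10 CPM or more in both regions, 266 departed more than 2-fold from the median of the 16 males in at least 1 male, 145 of them in exactly 1 male. Per male the number was 15 to 80 in tradeoff males (median 25.5, n = 8) and 19 to 84 in courtship males (median 28.5, n = 8), with an exact permutation p of 0.601 for the difference of means.

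Tradeoff male 1 and courtship male 21 had the most departing genes. Male 1 had 80, of which 73 were above the median, and the other tradeoff males had 15 to 39. Male 21 had 84, of which 46 were above, and it was followed by courtship male 29 with 58. Both also had the highest positions on the second principal component (9.49% of the variance), 38.5 for male 1 and 46.0 for male 21. Their depths were 40.6 M and 38.1 M counts. Male 21 had the deepest courtship library, and among tradeoff libraries only that of male 11 (44.2 M) was deeper than that of male 1. The part of depth in the departures was not tested.

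Many departures were found again in the telencephalon of the same male, a separate dissection and library. Of 574 departures summed over the 16 males, 303 (52.8%) were also over 2-fold and in the same direction in that male's own telencephalon. Per male the share was 31.8% to 65.0% in tradeoff males and 29.3% to 78.6% in courtship males. In the telencephalon of other males, the same genes departed in that direction in 6.17% to 20.0% of cases on average for tradeoff males and 9.21% to 21.8% for courtship males. For each of the 16 males the share in its own telencephalon was the higher one.

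**Figure D3:**
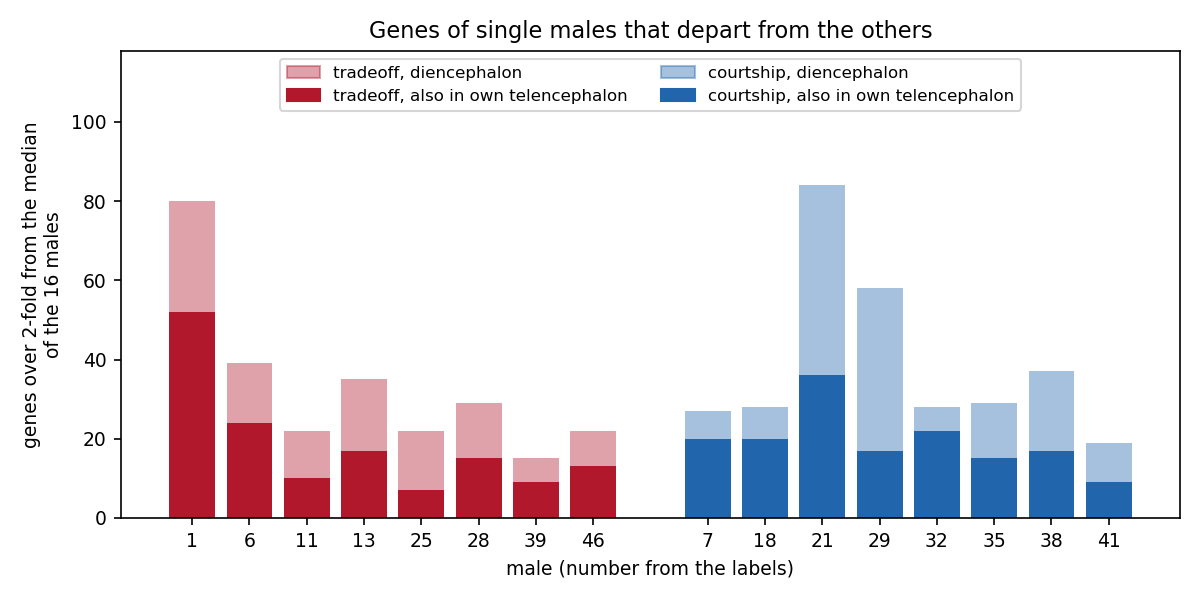
Number of genes (vertical) whose diencephalon level lies more than 2-fold from the median of the 16 males, for each male (horizontal), tradeoff in red on the left and courtship in blue on the right. The dark part of each bar counts genes that depart in the same direction in that male's own telencephalon, and males 1 and 21 stand highest at 80 and 84.

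The telencephalon of the same males gave the same comparison in a second region. There 0 genes were called (0.0% of 18714, edgeR quasi-likelihood test) and 846 (4.52%) had an unadjusted p under 0.05, 550 higher in tradeoff males (2.94%) and 296 lower (1.58%). That count depended on the other libraries in the fit. Without the telencephalon library of predator male 42 it was 1580 of 18687, with 0 called. In that library the 50 most abundant genes held 21.4% of counts, the largest such share in the series. The full telencephalon fit includes this library, as does the fit of all 62 libraries below. On only the 16 telencephalon libraries of tradeoff and courtship males the count was 1849 of 18083, with 1 called. Both of these counts were above a share of 0.05 of the genes tested. Only the 16 diencephalon libraries gave 699 of 18334, below that share, with 0 called. The called gene, ENSGACG00000003616, had 33.6 ± 3.48 CPM in tradeoff telencephalon and 47.5 ± 4.04 CPM in courtship telencephalon (SD, n = 8 each), a log2 fold change of -0.49 (SE 0.0675, edgeR adjusted p = 0.0162). The full telencephalon fit gave -0.50 for this gene (SE 0.316, unadjusted p = 0.124, edgeR adjusted p = 0.973), a similar estimate with a larger standard error. That fit also holds predator males, at 1.21 to 63.9 CPM (SD 18.8, n = 8), and control males, at 26.8 to 52.5 CPM (SD 10.3, n = 7). Their part in the standard error was not tested. Of the 634 diencephalon genes at an unadjusted p under 0.05, 623 were tested in that full fit, and 534 of them had an estimate of the same sign there. In 127 of these the unadjusted p was under 0.05 in the telencephalon too, against 2 of the genes with the opposite sign. The share of equal signs over all genes tested in both regions is not given here. These counts therefore cannot be read as particular to the 634 genes. These regions come from the same animals, whose deviations from the group means correlated between regions at 0.162 to 0.630 across genes, so the regions are not independent of each other. The telencephalon index was lower in tradeoff males, at 1.93 (SD 0.265, n = 8), than in courtship males, at 2.25 (SD 0.251, n = 8), with an unadjusted exact permutation p of 0.0287. This test was not among the 13 measures adjusted above. The part of this index in the telencephalon values was not tested.

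**Figure D4:**
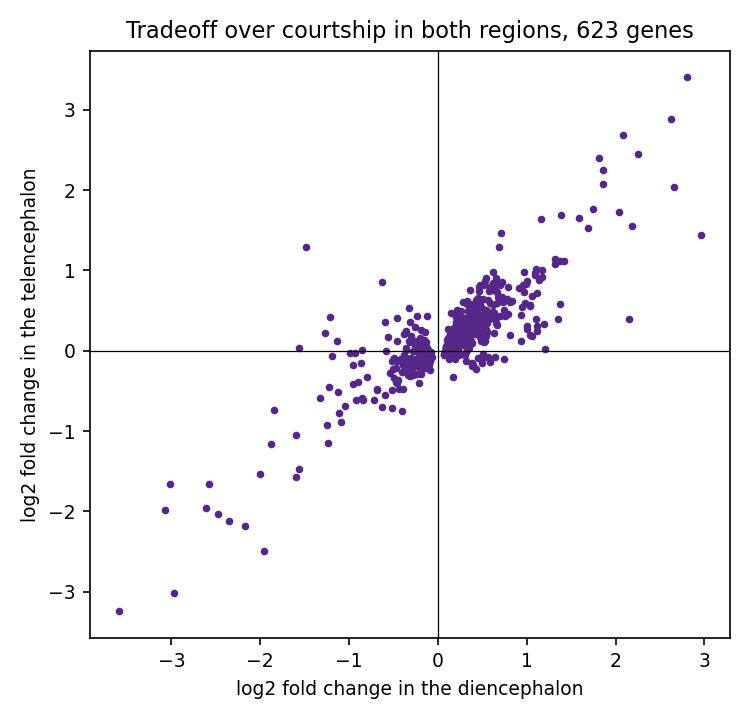
Log2 fold change of tradeoff over courtship in the diencephalon (horizontal) and in the telencephalon of the same males (vertical), for the 623 genes with an unadjusted p under 0.05 in the diencephalon that were tested in both. Most points, 534, lie in the quadrants of equal sign, and the gap around 0 on the horizontal axis follows from how the genes were chosen.

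Of the genes named above, ENSGACG00000009318 had in the telencephalon 2.94 CPM (lowest), 4.84 (median) and 7.12 CPM (highest) in tradeoff males, against 1.04, 1.44 and 4.79 CPM in courtship males. The log2 fold change there was 1.29 (SE 0.340, unadjusted p = 0.000679, edgeR adjusted p = 0.973). ENSGACG00000004638 had an estimate of 0.94 there (SE 0.515, unadjusted p = 0.0774), ENSGACG00000013078 one of -1.16 (SE 0.491, unadjusted p = 0.0249) and ENSGACG00000017975 one of -0.08 (SE 0.0681, unadjusted p = 0.259). The edgeR adjusted p of these 3 was 0.973.

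The difference between the regions in the effect of the trout was tested in a fit of all 62 libraries. This fit had no term for the male, so it treated the regions of a male as independent. It gave 0 called genes (0.0% of 19321, edgeR quasi-likelihood test) and 285 (1.48%) at an unadjusted p under 0.05, 90 with a higher effect in the diencephalon (0.466%) and 195 with a lower one (1.01%). Without the telencephalon library of predator male 42, which is in neither group compared, there were 522 of 19294. Of these, 263 were higher and 259 lower, so the excess of lower effects was not kept. With the male as a replicate block, 0 of 19321 genes were called and 593 had an unadjusted p under 0.05, 210 higher and 383 lower. The 4 genes named for this test were chosen by their p in the fit without the block. They include 3 in which 1 or 2 telencephalon libraries stood far above the others of their group. ENSGACG00000018732 had 4.66 to 7.74 CPM in tradeoff diencephalon and 4.18 to 16 CPM in courtship diencephalon. In tradeoff telencephalon it had 293 CPM in male 39 and 3.12 to 6.23 CPM in the other 7 males, and in courtship telencephalon 2.43 to 14.4 CPM. The difference of the effects was -3.22 on the log2 scale (SE 0.887, unadjusted p = 0.000600), and without the telencephalon library of male 39 it was -0.01 (SE 0.509, unadjusted p = 0.983). With the male as a block it was -0.44 (SE 0.584, unadjusted p = 0.459).

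ENSGACG00000001703 was a diencephalon gene that was nearly absent from most telencephalon libraries. It had 35.8 to 48.3 CPM in tradeoff diencephalon and 42.0 to 50.8 CPM in courtship diencephalon, with no difference beyond the spread (log2 fold change -0.08, SE 0.105, unadjusted p = 0.477). In tradeoff telencephalon it summed to 411 counts, 262 of them in male 13 and 111 in male 46, and in courtship telencephalon to 5 counts. Male 13 had the lowest regional index of the 8 tradeoff telencephalon libraries, 1.40, and male 46 had 2.11. The part of the dissection in this value was not tested. The difference of the effects was -6.33 (SE 1.76, unadjusted p = 0.000668) and without the telencephalon library of male 13 it was -5.01 (SE 1.84, unadjusted p = 0.00878). With the male as a block it was -5.23 (SE 2.25, unadjusted p = 0.0275). With so few courtship counts these sizes depend on the fit's prior count. ENSGACG00000006999 had 6.92 to 13.6 CPM in tradeoff diencephalon and 7.11 to 12.3 CPM in courtship diencephalon. Its telencephalon counts summed to 10 in tradeoff males and 331 in courtship males, 326 of these in male 41, the courtship male with the lowest telencephalon index, 1.75. The difference of the effects was 5.0 (SE 1.41, unadjusted p = 0.000764), and without the telencephalon library of male 41 it had the opposite sign, -0.62 (SE 1.47, unadjusted p = 0.674). With the male as a block it was 1.86 (SE 1.75, unadjusted p = 0.296). These libraries were left out once their values were known. In all 3 genes the edgeR adjusted p was 1.0, with and without those libraries, and 0.999 with the block.

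The fourth gene of the region test was the Y chromosome model maker-chrY-snap-gene-119.105. It had 0.699 CPM (lowest), 1.09 (median) and 1.31 CPM (highest) in tradeoff diencephalon, against 0.723, 0.864 and 1.22 CPM in courtship diencephalon. In the telencephalon it had 0.644, 0.820 and 0.963 CPM in tradeoff males, against 0.962, 1.06 and 1.45 CPM in courtship males. The groups overlapped in the diencephalon, and in the telencephalon tradeoff males were lower with a bare overlap. The difference of the effects was 0.65 (SE 0.218, unadjusted p = 0.00418, edgeR adjusted p = 1.0), and with the male as a block it was 0.65 too (SE 0.213, unadjusted p = 0.00485, adjusted p = 0.999).

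The trout was also shown without a female, in predator males, and the difference between its effects with and without a female was tested within the 31 diencephalon libraries. This departure from additivity, tradeoff minus courtship less predator minus control, takes the predator stimulus as the same in both. It gave 0 called genes (0.0% of 18942, edgeR quasi-likelihood test) and 572 (3.02%) at an unadjusted p under 0.05, 329 with a positive departure (1.74%) and 243 with a negative one (1.28%). The smallest adjusted p was 0.399. Predator against control males gave 0 called genes (0.0%) and 603 (3.18%) at an unadjusted p under 0.05, 290 higher in predator males (1.53%) and 313 lower (1.65%). Of the 634 genes of the tradeoff comparison, 317 had an estimate of the same sign there. An unadjusted p under 0.05 there was found for 20 genes with the same sign and 10 with the opposite one. The share of equal signs over all tested genes is not given here, so these counts cannot be read as particular to the 634 genes.

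ENSGACG00000008172 had the smallest p for the departure. Its diencephalon level was 0.151 CPM (lowest), 0.751 (median) and 4.63 CPM (highest) in tradeoff males and 0.160, 0.332 and 0.5 CPM in courtship males. In predator males it was 0.0499, 0.141 and 0.341 CPM, and in control males 0.123, 0.995 and 1.67 CPM. Tradeoff and control males both held high and low males, while courtship and predator males were all at or under 0.5 CPM. The telencephalon medians of the same males were 0.639 CPM in tradeoff, 0.213 in courtship, 0.125 in predator and 0.766 in control males. Tradeoff over courtship there was 2.40 on the log2 scale (SE 0.690, unadjusted p = 0.00159, edgeR adjusted p = 0.973). The pattern was thus not confined to the diencephalon. The departure in the diencephalon was 4.08 on the log2 scale (SE 0.817, unadjusted p = 2.11e-05, edgeR adjusted p = 0.399). DESeq2 called this gene and no other, with 4.11 (SE 0.816, adjusted p = 0.00923). Voom with sample quality weights called 0 genes and gave 3.15 for this one (unadjusted p = 0.00229). The gene is of low level. Its counts summed to 328 in tradeoff, 94 in courtship, 49 in predator and 216 in control diencephalon. Without male 13, the highest tradeoff male, left out once its value was known, edgeR gave 3.35 (SE 0.718, adjusted p = 0.557).

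ENSGACG00000011581 followed, with 7.40 CPM (lowest), 8.51 (median) and 9.20 CPM (highest) in tradeoff males and 5.77, 7.09 and 8.04 CPM in courtship males. It had 6.12, 7.15 and 8.42 CPM in predator males and 7.93, 8.49 and 9.94 CPM in control males. The level was thus higher in tradeoff than in courtship males and lower in predator than in control males, with overlap in both pairs. The departure was 0.51 (SE 0.115, unadjusted p = 0.000104, edgeR adjusted p = 0.985).

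The lower departures with the smallest p were those of ENSGACG00000019072 and ENSGACG00000017975. ENSGACG00000019072 averaged 6.42 ± 2.04 CPM in the 8 tradeoff males, 9.23 ± 1.92 in the 8 courtship males, 8.55 ± 1.84 in the 8 predator males and 6.31 ± 1.02 in the 7 control males (SD), a departure of -0.96 (SE 0.242, unadjusted p = 0.000380, edgeR adjusted p = 1.0). ENSGACG00000017975, described above, averaged 35.3 CPM in predator males (SD 1.82, n = 8) and 34.2 in control males (SD 1.07, n = 7), a departure of -0.21 (SE 0.0557, unadjusted p = 0.000554, edgeR adjusted p = 1.0). Its courtship males stood above the means of the other 3 groups.

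**Figure D5:**
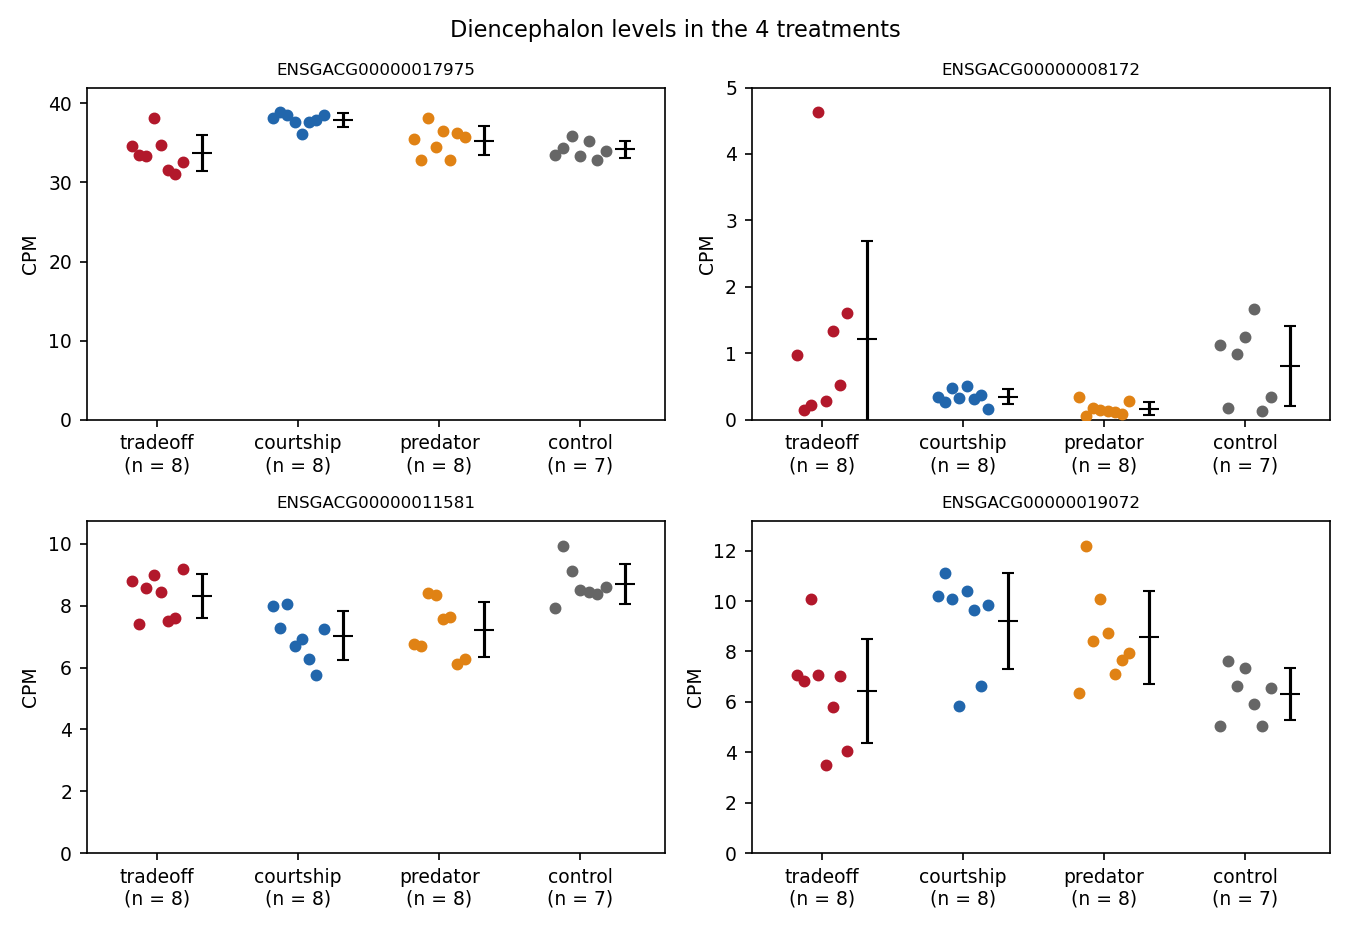
Diencephalon level in CPM (vertical, from 0) of 4 genes, the 2 positive and the 2 negative departures from additivity with the smallest p, in tradeoff, courtship, predator and control males from left to right. Points are males, and black marks are the mean and SD (n = 8, 8, 8 and 7), with the SD bar cut at 0. In ENSGACG00000008172 the high values, up to 4.63 CPM, are in tradeoff and control males.

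ENSGACG00000010476 was chosen after its values were seen, and with earlier results of these data known. It had 13.4 CPM (lowest), 24.9 (median) and 30.5 CPM (highest) in tradeoff diencephalon, against 13.2, 19.0 and 25.3 CPM in courtship diencephalon. The log2 fold change was 0.37 (SE 0.173, unadjusted p = 0.0426, edgeR adjusted p = 1.0), and it was 0.42 (SE 0.180, unadjusted p = 0.0257, adjusted p = 1.0) for predator over control males. The difference between these effects was -0.06 (95% interval -0.56 to 0.45). In the telencephalon the log2 fold change of tradeoff over courtship was 0.75 (SE 0.286, unadjusted p = 0.0132, edgeR adjusted p = 0.973). Both regions come from the same males, so the diencephalon values are no independent support for those of the telencephalon.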

How the data were processed

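Per the labels' protocols, the diencephalon and telencephalon were dissected 1 hour after a trial, polyadenylated RNA was made into stranded libraries, and these were sequenced in 1 lane. The deposited values are whole read counts for each gene model in each library. STAR and HTSeq are named in the submitters' processing notes. Their versions and strand setting, and the build and gene annotation behind the counts, are not given in the sources used, so overlapping antisense genes may share reads. The 5 HTSeq tally lines per file were left out of library sizes and tests. Of the reads tallied in the 16 libraries, 42.8% to 47.1% were in gene models and 4.66% to 14.4% aligned to several places.

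Genes passed filterByExpr (minimum count 10, minimum total 15). Library sizes were scaled by TMM within each fit, and contrasts were tested with edgeR 4.0.16 (robust quasi-likelihood, R 4.3.3) and adjusted by the Benjamini-Hochberg method, threshold 0.05. CPM use the same scaling. The genes of the regional index had a mean log2-CPM over 3 and were chosen without predator male 42. Departures of single males used log2(CPM + 0.05). Alternatives used DESeq2 1.42.0, limma 3.58.1 voom, other size factors, filters, libraries and the regional index as a covariate. The edgeR fits were run on simulated counts, to check that mean estimates came near the changes put in. Only genes with a mean log2-CPM over 3 were changed, and the regions of a male were drawn independently. That check therefore says nothing about genes of low level or the pairing of regions. Single values per library were compared by two-sided exact permutation tests of the means, 8 against 8. No files held identical counts (0 pairs). Regions of the same male were paired by the male's number in the titles. Their deviations correlated at 0.419 on average within males (range 0.162 to 0.630) and at -0.0133 between males.

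The comparison, the gene lists by symbol and the rules were chosen with earlier results of these data known. Identifiers matched no symbol, so the 7 gene lists and the cell type markers were not used. The rule for naming genes took, in each of 3 comparisons, the 2 identifiers higher and 2 lower with the smallest p. Other genes named were chosen after their values were seen.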

Additional observations from a re-analysis of the deposited data

Results flagged for a closer look

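Of 64 groups of 7 or 8 values looked at, 9 had a highest or lowest sample whose gap to its neighbour was a large part of the group's range (over 0.526 for 8 samples by Dixon's ratio, 0.568 for 7). Chance flags about 1 in 20 groups of normal values. Many of the groups here belong to genes named for a small p in these same data, so 9 of 64 cannot be set against that rate.

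In courtship diencephalon, male 21 stood apart in ENSGACG00000013078 (ratio 0.859, at 4.91 CPM) and on the second principal component of the libraries (ratio 0.647, at 46.0). Male 32 was the lowest courtship male in ENSGACG00000017975 (ratio 0.545, at 36.1 CPM). In tradeoff diencephalon, male 1 stood apart in the number of genes departing from the median of the 16 males (ratio 0.631, with 80 genes), and male 13 in ENSGACG00000008172 (ratio 0.676, at 4.63 CPM). In tradeoff telencephalon, male 39 stood apart in ENSGACG00000018732 (ratio 0.989, at 293 CPM), male 13 in ENSGACG00000001703 (ratio 0.541, at 8.08 CPM) and male 6 in ENSGACG00000006999 (ratio 0.792, at 0.161 CPM, which is 7 counts). In courtship telencephalon, male 41 stood apart in ENSGACG00000006999 (ratio 0.988, at 8.68 CPM). No difference between regions or with and without a female passed the threshold in edgeR.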

How the results depend on the processing

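The count of 0 called genes between tradeoff and courtship diencephalon held in edgeR under every setting run, among them each of the 16 libraries left out in turn (0 to 0 called, 548 to 780 genes at an unadjusted p under 0.05). DESeq2 on only the 16 libraries called 4, 3 higher and 1 lower. At an unadjusted p under 0.05 there were 316 genes when only those with a mean of at least 10 CPM were tested, where fewer genes enter, and 410 in 1 fit of all 62 libraries, 205 higher and 205 lower, against 383 higher and 251 lower in the fit of 31. The cause of that last move was not tested. For the departure from additivity DESeq2 called 1 gene, ENSGACG00000008172, and voom with sample quality weights called 0. There edgeR without tradeoff replicate 13 had 593 of 18921 genes at an unadjusted p under 0.05. For the difference between regions DESeq2 called 1 gene, ENSGACG00000014956, which summed to 8 counts in tradeoff and 0 in courtship telencephalon. With the male as a replicate block 593 of 19321 genes had an unadjusted p under 0.05, with 0 called. Leaving out 1 of 4 telencephalon libraries (predator 42, tradeoff 39 and 13, courtship 41, the last 3 chosen once their values were known) gave 257 to 522, the highest without predator male 42 (263 higher, 259 lower), with 0 to 0 called. Without the telencephalon library of courtship male 41 the estimate for ENSGACG00000006999 was -0.62 (SE 1.47), and the value with all libraries was 5.0. Over the 7 alternative settings it ran from -0.62 to 5.18, the highest in DESeq2, and with the male as a block it was 1.86. In the telencephalon, the comparison gave 1580 genes at an unadjusted p under 0.05 without predator male 42, and 1849, with 1 called (ENSGACG00000003616, lower), on only its 16 libraries. The difference in the diencephalon index was 0.0349 with 500 genes each way and kept its direction with 100. Of 145 values of the named genes under other settings, 142 kept their direction and their side of the threshold. All started far above the threshold, at an adjusted p of 0.399 or more, so most were bound to keep their side. Sizes could still change within this count. For ENSGACG00000018732 the difference between regions went from -3.22 to -0.01 without the telencephalon library of male 39.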
